A study of Mus musculus with 21 samples.

Results

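The proteasome is the protease complex that degrades ubiquitin-tagged proteins in the cytosol and nucleus. Its genes were taken as every non-control spot of the arrays whose gene name starts with Psma to Psmg and a number, which gave 49 genes and 62 probes of the 35019 genes on the array. The brightest probe stood for each gene. Of the 49 genes, 46 were tested, and for all 46 the Cy5 signal of the liver was well above background on 21 of 21 arrays. Psma8, the alpha subunit of germ cells, and Psmb11, the catalytic subunit of the thymic cortex, were not well above background in any liver. Psmc3ip, which passes the name pattern but encodes a meiotic recombination factor and no subunit, was above background in 1 HF-Q liver and 1 HF liver and was not tested.

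The samples were livers of male adult C57BL/6J mice, an inbred strain, 10 fed a high-fat diet with 0.33% (w/w) quercetin (HF-Q) and 11 fed the high-fat diet alone (HF). Both groups ate their diet for 12 weeks after 3 weeks on normal-fat food and went without food for 2 to 4 hours before they were killed. Quercetin is a plant flavonoid, and all 21 mice carried the high-fat diet, so no comparison with normal-fat feeding was made here. Each liver was labelled with Cy5 and hybridised to 1 array against a Cy3-labelled pool of all livers. Levels are therefore given as the log2 of Cy5 over Cy3, liver over pool, and a log2 fold change is the HF-Q mean minus the HF mean.

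The arrays lay on 3 slides, as read from array identifiers and not from the labels, which held 4, 2 and 4 HF-Q livers and 3, 4 and 4 HF livers. Between 44.0% and 51.3% of the probes of an array were well above background. The fit covered 19716 genes, and the number of arrays limits its precision. All 8 hepatocyte markers were measured, among them Alb (albumin) and Ttr (transthyretin). The mean log2 ratio of the 6 measured pancreatic acinar cell markers ran from -0.92 to -0.16 over HF-Q livers and from -1.03 to 2.58 over HF livers, with HF replicates 11 and 5, both on slide 1, at 2.58 and 1.91 and the next HF liver at -0.39. Without replicate 5, without replicate 11 and without both, which was chosen after seeing the data, 0 of the 46 proteasome genes had an unadjusted p under 0.05. Without both, log2 fold changes moved by 0.036 at most, for Psma4, and lay above 0 for 27 of the 46, or for 31 without replicate 5 and 23 without replicate 11. In whole liver, fewer cells of a type and less RNA per cell cannot be told apart.

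In the complex, alpha subunits form the outer rings of a barrel and gate its entry, and beta subunits form the inner rings, where Psmb5, Psmb6 and Psmb7 cut the substrate. A regulatory particle caps the barrel: its base holds the ATPases that unfold proteins, and its lid holds the deubiquitinase Psmd14. Interferon induces the alternative catalytic subunits Psmb8, Psmb9 and Psmb10, which replace the 3 standard ones in immunoproteasomes and favour peptides that fit MHC class I. Other caps (Psme1 to Psme4), an inhibitor (Psmf1) and assembly chaperones complete the family. The transcription factor Nfe2l1 drives the subunit genes when proteasome activity is short.

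No proteasome gene passed the test between HF-Q and HF livers, core, base, lid, activators and immunoproteasome included. By limma's moderated test with Benjamini-Hochberg adjustment over all genes, 0 of 46 passed an adjusted p of 0.05, against 0% of all 19716 genes, and the lowest adjusted p of a proteasome gene was 0.939. At an unadjusted p under 0.05, 0 of 46 passed, against 5.93% of all genes (3.02% higher and 2.91% lower in HF-Q). The groups overlapped for all 46, and they failed to overlap for 0.00507% of all genes. The log2 fold change was above 0 for 32 of the 46, against 47.0% of all genes, and its median was 0.0067, against -0.0043 over all genes. These signs depend on the scaling: with median centring all 31 genes of the constitutive core, base and lid lay above 0, with a median of 0.063, against 0.024 over all genes.

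The intervals give, gene by gene, the size of difference that the fit after loess leaves possible. They do not cover the choice of scaling or a shift shared by genes of like brightness, which loess removes. For the 31 genes of the constitutive core, base and lid, every 95% confidence interval held 0, and together they ran from 0.915-fold to 1.11-fold. The 3 immunoproteasome genes reached as low as 0.806-fold and as high as 1.11-fold. Psme4 alone reached 1.41-fold at its upper bound. The proteasome genes also varied little between livers: the median residual SD was 0.091 over the 46 genes, against 0.126 over all genes, and 36 of the 46 lay below that value. This comparison was not matched for brightness. All 46 were well above background on 21 arrays, whereas the filter kept any probe that was so on 10 or more.

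**Figure D1:**
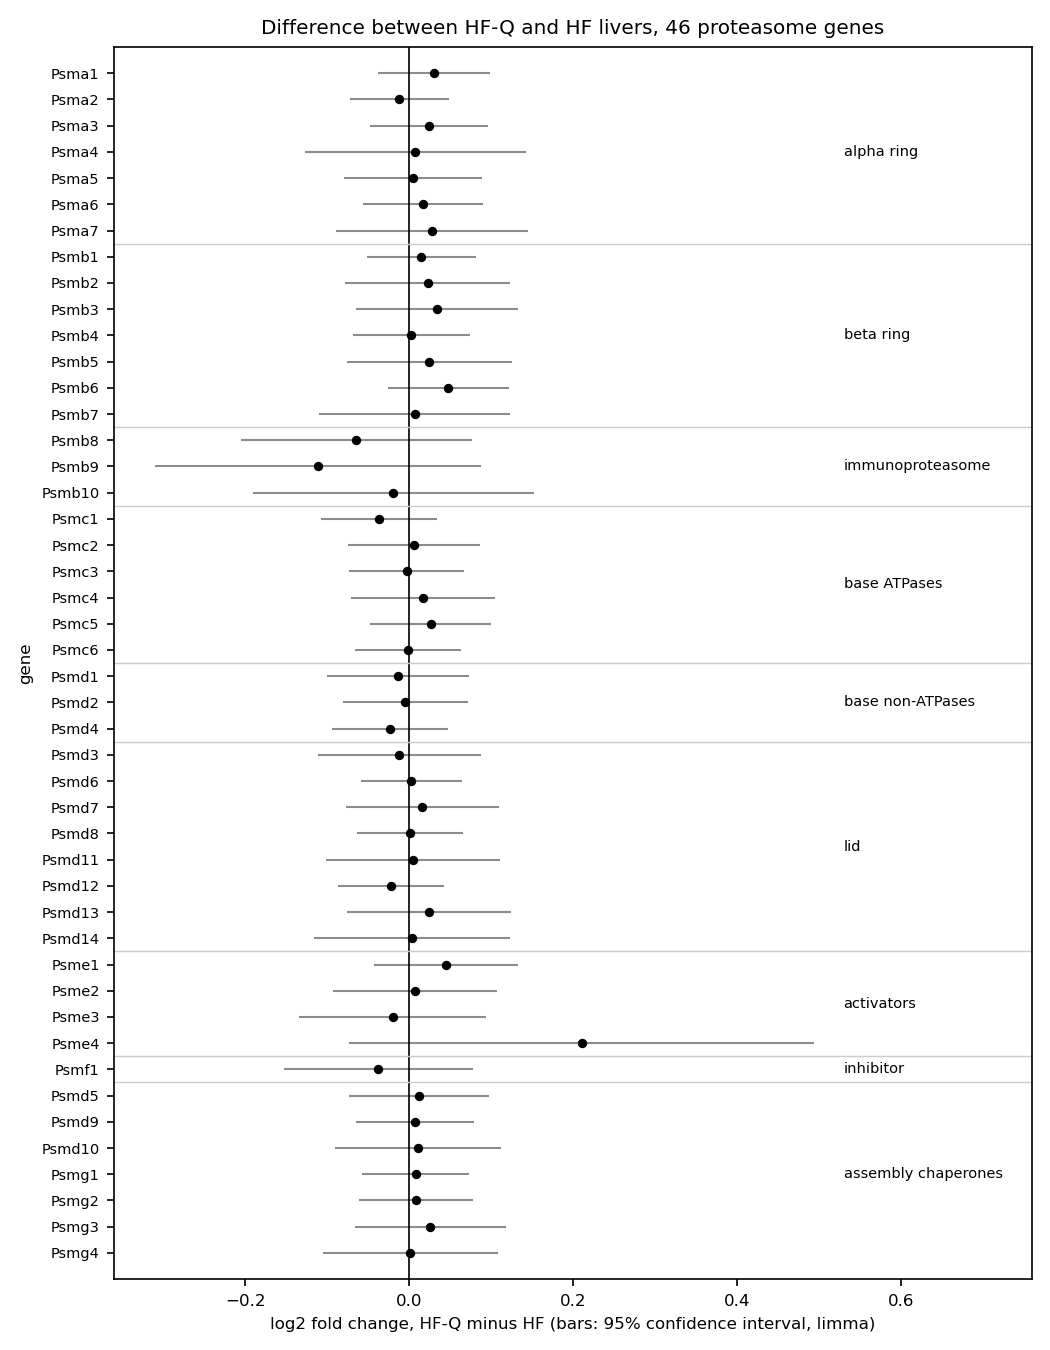
Log2 fold change of HF-Q minus HF livers for the 46 tested proteasome genes (points) with the 95% confidence interval of limma's fit (bars), grouped by role from top to bottom. Every bar crosses 0, the immunoproteasome genes and Psme4 have the widest bars, and the other points lie within 0.05 of 0.

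The immunoproteasome genes were the only class of several genes besides the base non-ATPases with all members below 0, though 1 of the 3 lay above 0 with median centring or in the authors' deposited table, and none passed the test. Psmb9 replaces Psmb6 at the caspase-like site. Its log2 ratio ran between -0.40 and 0.31 in HF-Q livers with a median of -0.16, against -0.44 to 0.39 in HF livers with a median of 0.076. Both groups held livers at the high and at the low end. HF-Q minus HF gave a log2 fold change of -0.11 ± 0.096 (SE, n = 10 and 11, limma adjusted p = 0.976). Psmb8, the chymotrypsin-like subunit that replaces Psmb5, ran between -0.25 and 0.23 in HF-Q livers with a median of -0.14, against -0.31 to 0.34 in HF livers with a median of -0.032. HF-Q minus HF came to -0.064 ± 0.068 (limma adjusted p = 0.976). Psmb10, which takes the place of Psmb7, ran between -0.32 and 0.24 in HF-Q livers with a median of -0.15, against -0.40 to 0.41 in HF livers with a median of -0.064. For this gene the log2 fold change was -0.019 ± 0.083 (limma adjusted p = 0.999). Within slides 1, 2 and 3 the log2 fold change of Psmb9 was 0.032, -0.27 and -0.18. Over the same slides that of Psmb8 was -0.0039, -0.21 and -0.044, and that of Psmb10 was -0.12, -0.24 and 0.19. The sign differed between slides for Psmb9 and Psmb10, and slide 2, with 2 HF-Q livers, gave the lowest value of each.

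Psmb8 and Psmb9 varied together from liver to liver. After the group means were removed, their log2 ratios correlated at r = 0.93 (Spearman's rho 0.94) over 21 livers, the highest r of the 1035 pairs of tested proteasome genes. The value was 0.93 within HF-Q livers and 0.95 within HF livers, 0.99, 0.97 and 0.85 within slides 1, 2 and 3, and 0.94 without the 2 livers farthest from the median of Psmb8. Without HF replicates 5 and 11 it was 0.93. It ran from 0.88 to 0.94 under 6 other background and normalization settings. Psmb10 followed less closely, at r = 0.67 with Psmb8 and 0.49 with Psmb9 (0.22 and 0.061 on slide 1), and the first of these dropped to 0.34 without the 2 farthest livers. After loess the immunoproteasome genes showed little correlation with the subunits they replace over 21 livers. The r was -0.16 for Psmb8 and Psmb5, 0.041 for Psmb9 and Psmb6, and -0.0046 for Psmb10 and Psmb7. Within slides 1, 2 and 3 it was 0.13, -0.20 and -0.41 for the first pair, 0.081, 0.60 and -0.30 for the second, and -0.48, 0.028 and 0.11 for the third. These pairs were not computed under other normalization settings. These values describe 21 livers whose ratios share the pool and the array normalization.

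**Figure D2:**
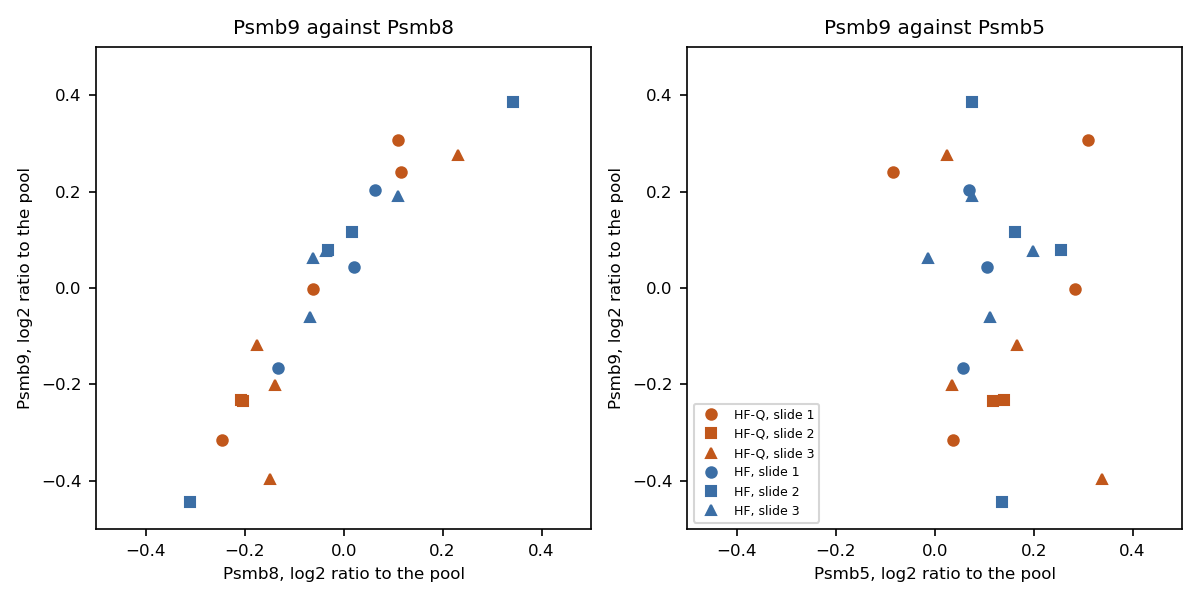
Log2 ratio to the pool of Psmb9 against Psmb8 (left) and against its fellow beta subunit Psmb5 (right), 1 point per liver, HF-Q orange and HF blue, symbols by slide. Psmb9 and Psmb8 lie along a line (r = 0.93, group means removed) in both groups and on all 3 slides, and Psmb9 and Psmb5 show no such line.

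Other genes of the interferon and antigen presentation pathway varied with them. Of 14 antigen presentation genes with a value on every array, 12 had an r above 0 with the mean of Psmb8 and Psmb9, and the median was 0.45, against -0.018 over all genes. Tap1, a subunit of the peptide transporter of the endoplasmic reticulum, stood at 0.78. The chaperones Pdia3 and Calr stood below 0, at -0.22 and -0.24. The interferon-inducible GTPase genes Gbp3 and Gbp2, chosen after their values were seen, had r = 0.89 and 0.86 with Psmb8. The mean of the leukocyte, lymphocyte and dendritic cell markers had r = 0.63 with the mean of Psmb8 and Psmb9, or 0.48 without the 2 farthest livers. The value was 0.49 for the stellate cell markers, or 0.31 without the 2 farthest livers, with 0.16 in HF-Q and 0.79 in HF livers. For the Kupffer cell and macrophage markers r was 0.22, for the endothelial markers 0.13 and for the acinar markers -0.24. Marco had a residual SD of 0.998, against 0.15 (Cd68) to 0.34 (Adgre1) for the other macrophage markers. It thus weighs most in the macrophage list mean. For the hepatocyte markers r was -0.36, and for the cholangiocyte markers, of which only 2 of 4 were measured, -0.58. The share of spots well above background in Cy5 had r = 0.47 with the mean of Psmb8 and Psmb9. The leukocyte list had 9 of 11 markers measured, with list means of -0.34 to 0.17 in HF-Q livers and -0.25 to 0.36 in HF livers. In that list Cd74, H2-Aa and H2-Ab1 varied most, with residual SDs of 0.28, 0.35 and 0.33. The other markers had 0.076 (Nkg7) to 0.20 (Cd3g), so those genes weigh most in the list mean. Whether its r follows the number of leukocytes was not tested. The part of these cells or of the arrays in the covariation was not tested.

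Psmb8 and Psmb9 lie in the major histocompatibility complex on chromosome 17. In the RefSeq annotation of GRCm38.p6 the order along the chromosome is Psmb9, Tap1, Psmb8 and Tap2, with no other annotated gene between them. On the array's build, NCBI37 (mm9), the Psmb9 probe lies at chr17:34319174-34319233 on the minus strand and the Psmb8 probe at chr17:34337771-34337830 on the plus strand. The Psmb10 gene is elsewhere, with its probe at chr8:108459677-108459736 on the minus strand. The 250 bases before the RefSeq gene start are printed for the immunoproteasome genes, as the class that holds the Psmb8 and Psmb9 pair, and for the constitutive partners Psmb5 and Psmb6, which showed r = -0.16 (Psmb8 with Psmb5) and 0.041 (Psmb9 with Psmb6). Capitals mark matches on either strand to the interferon-gamma activated site letters TTCNNNGAA or to the antioxidant response element core TGACNNNGC.
Psmb8 promoter: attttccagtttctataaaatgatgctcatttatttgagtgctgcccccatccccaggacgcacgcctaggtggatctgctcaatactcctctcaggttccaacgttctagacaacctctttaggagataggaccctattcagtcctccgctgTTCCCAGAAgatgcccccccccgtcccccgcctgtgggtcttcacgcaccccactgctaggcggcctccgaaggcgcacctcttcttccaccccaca
Psmb9 promoter: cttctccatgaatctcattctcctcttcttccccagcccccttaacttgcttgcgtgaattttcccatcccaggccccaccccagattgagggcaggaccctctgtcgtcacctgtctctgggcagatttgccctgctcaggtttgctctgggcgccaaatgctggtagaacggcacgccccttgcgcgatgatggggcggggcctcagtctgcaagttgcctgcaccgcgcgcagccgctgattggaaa
Psmb10 promoter: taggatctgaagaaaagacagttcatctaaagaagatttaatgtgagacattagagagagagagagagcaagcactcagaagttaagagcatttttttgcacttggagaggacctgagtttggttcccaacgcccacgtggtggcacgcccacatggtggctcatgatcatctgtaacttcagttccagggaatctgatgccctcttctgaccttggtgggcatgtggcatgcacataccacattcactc
Psmb5 promoter: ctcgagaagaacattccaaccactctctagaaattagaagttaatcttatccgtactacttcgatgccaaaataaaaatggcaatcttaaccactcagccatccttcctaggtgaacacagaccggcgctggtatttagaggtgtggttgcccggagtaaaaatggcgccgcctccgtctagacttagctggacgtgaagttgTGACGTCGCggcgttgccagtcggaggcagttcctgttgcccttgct
Psmb6 promoter: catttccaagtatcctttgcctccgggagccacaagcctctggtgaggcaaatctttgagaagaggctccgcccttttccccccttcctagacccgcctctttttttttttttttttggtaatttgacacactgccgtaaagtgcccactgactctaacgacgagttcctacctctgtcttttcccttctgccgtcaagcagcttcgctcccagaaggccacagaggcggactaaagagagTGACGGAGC
The windows, from RefSeq on GRCm38.p6, are chr17:34197945-34198194 (plus) for Psmb8, chr17:34187331-34187580 (minus) for Psmb9, chr8:105938393-105938642 (minus) for Psmb10, chr14:54617996-54618245 (minus) for Psmb5 and chr11:70525107-70525356 (plus) for Psmb6. The 25 bases of the Psmb9 window farthest from its start lie inside the annotated Tap1 gene.

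Promoter windows were matched for 39 of the 46 tested genes. TTCNNNGAA occurred in 2 of 39, Psmb8 and the assembly chaperone gene Psmg1, against 8.13% of 27025 genes. TGACNNNGC occurred in 5 of 39, in Psmb5, Psmb6, Psmc6, Psmd12 and Psmd9, against 11.52% of all genes. The core of the interferon-stimulated response element, GAAA followed by any 2 bases and GAAA again, occurred in 3 of 39, Psmb3, Psmd4 and Psmd9, against 3.463% of all genes, and in none of the 3 immunoproteasome genes. CCAAT occurred in 13 of 39, against 37.49% of all genes. A match is a run of letters in this window and not a shown binding site.

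The beta ring genes all had a log2 fold change above 0, by 0.048 at most (5 of 7 above 0 with the Cy5 channel alone and 0 of 7 on slide 2), and none passed the test. Their mean differed by 0.048, -0.045 and 0.044 within slides 1, 2 and 3. Psmb6, the caspase-like subunit, had the lowest p of the ring. Its log2 ratio ran between -0.043 and 0.27 in HF-Q livers with a median of 0.061, against -0.0088 to 0.12 in HF livers with a median of 0.049. The highest livers were HF-Q, and the HF values lay inside the HF-Q range. A log2 fold change of 0.048 ± 0.036 (SE, n = 10 and 11, limma adjusted p = 0.961) resulted. Psmb5, the chymotrypsin-like subunit, ran between -0.085 and 0.34 in HF-Q livers with a median of 0.13, against -0.013 to 0.26 in HF livers with a median of 0.11. HF-Q minus HF came to 0.024 ± 0.049 (limma adjusted p = 0.999). Psmb7, the trypsin-like subunit, ran between -0.23 and 0.25 in HF-Q livers with a median of -0.013, against -0.16 to 0.12 in HF livers with a median of 0.00083. Its log2 fold change was 0.0066 ± 0.056 (limma adjusted p = 0.999). The non-catalytic subunits Psmb1, Psmb2, Psmb3 and Psmb4 had log2 fold changes of 0.015, 0.023, 0.034 and 0.0027.

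Set against its constitutive partner within each liver, no immunoproteasome gene separated the groups. The difference in log2 ratio of Psmb9 minus Psmb6 averaged -0.16 ± 0.28 in HF-Q livers and -0.0048 ± 0.21 in HF livers (SD, n = 10 and 11). Psmb8 minus Psmb5 averaged -0.21 ± 0.23 in HF-Q livers and -0.12 ± 0.19 in HF livers. Psmb10 minus Psmb7 averaged -0.11 ± 0.24 in HF-Q livers and -0.085 ± 0.25 in HF livers. For each of these the group ranges overlapped, and the difference between the groups was smaller than the SD of either group.

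**Figure D3:**
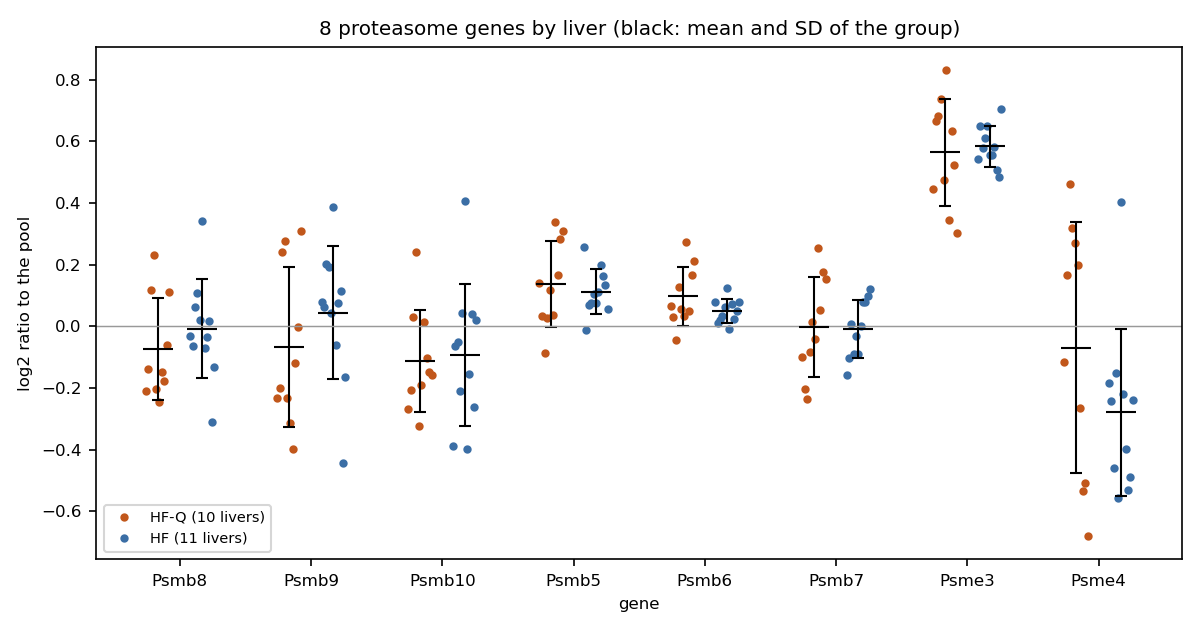
Log2 ratio to the pool of 8 proteasome genes, 1 point per liver, HF-Q (orange, left) and HF (blue, right) for each gene, with the group mean and SD in black. The groups overlap for every gene shown, Psme4 spreads widest, and all 21 livers lie above 0 for Psme3.

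The alpha ring genes had log2 fold changes between -0.012 and 0.030, with a median of 0.017 (6 of 7 above 0, or 4 of 7 with the Cy5 channel alone and 1 of 7 on slide 2). Psma1, a structural subunit of the ring, had the lowest p. In HF-Q livers the log2 ratio ran between -0.13 and 0.10 with a median of 0.031, against -0.10 to 0.054 in HF livers with a median of 0.0073. The log2 fold change was 0.030 ± 0.033 (SE, limma adjusted p = 0.976), less than its SD over livers of 0.070 in HF-Q and 0.054 in HF. The log2 fold change of Psma2 was -0.012, and those of Psma3, Psma4, Psma5, Psma6 and Psma7 were 0.024, 0.0072, 0.0045, 0.017 and 0.028. Psma4 had the widest spread of the ring, with a residual SD of 0.16, and its second probe followed the first at r = 0.94.

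The base ATPases, which unfold the substrate, centred on 0, with a median log2 fold change of 0.0020. Psmc1 had the lowest p of them. In HF-Q livers the log2 ratio ran between -0.17 and 0.028 with a median of -0.077, against -0.15 to 0.087 in HF livers with a median of -0.032. The log2 fold change was -0.037 ± 0.034 (SE, limma adjusted p = 0.976), and the groups overlapped over most of their range. Psmc2, Psmc3, Psmc4, Psmc5 and Psmc6 had log2 fold changes of 0.0059, -0.0033, 0.017, 0.026 and -0.0018. The base non-ATPases Psmd1 and Psmd2, the scaffold proteins of the base, had log2 fold changes of -0.013 and -0.0046, and with median centring or in the authors' deposited table all 3 base non-ATPases lay above 0. Psmd4, a ubiquitin receptor, ran between -0.23 and -0.032 in HF-Q livers with a median of -0.090, against -0.21 to -0.011 in HF livers with a median of -0.085. HF-Q minus HF was -0.023 ± 0.034 (limma adjusted p = 0.989).

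The lid genes had log2 fold changes between -0.023 and 0.024, with a median of 0.0029. Psmd12, a structural lid subunit, had the lowest p of them. Its log2 ratio ran between -0.23 and -0.047 in HF-Q livers with a median of -0.15, against -0.22 to -0.017 in HF livers with a median of -0.14. HF-Q minus HF was -0.023 ± 0.031 (SE, limma adjusted p = 0.988), and all 21 livers lay below the pool. Psmd14, the deubiquitinase that removes ubiquitin chains before the substrate enters, had a log2 fold change of 0.0031. The structural subunits Psmd3, Psmd6, Psmd7, Psmd8, Psmd11 and Psmd13 had log2 fold changes of -0.012, 0.0027, 0.016, 0.0012, 0.0048 and 0.024.

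**Figure D4:**
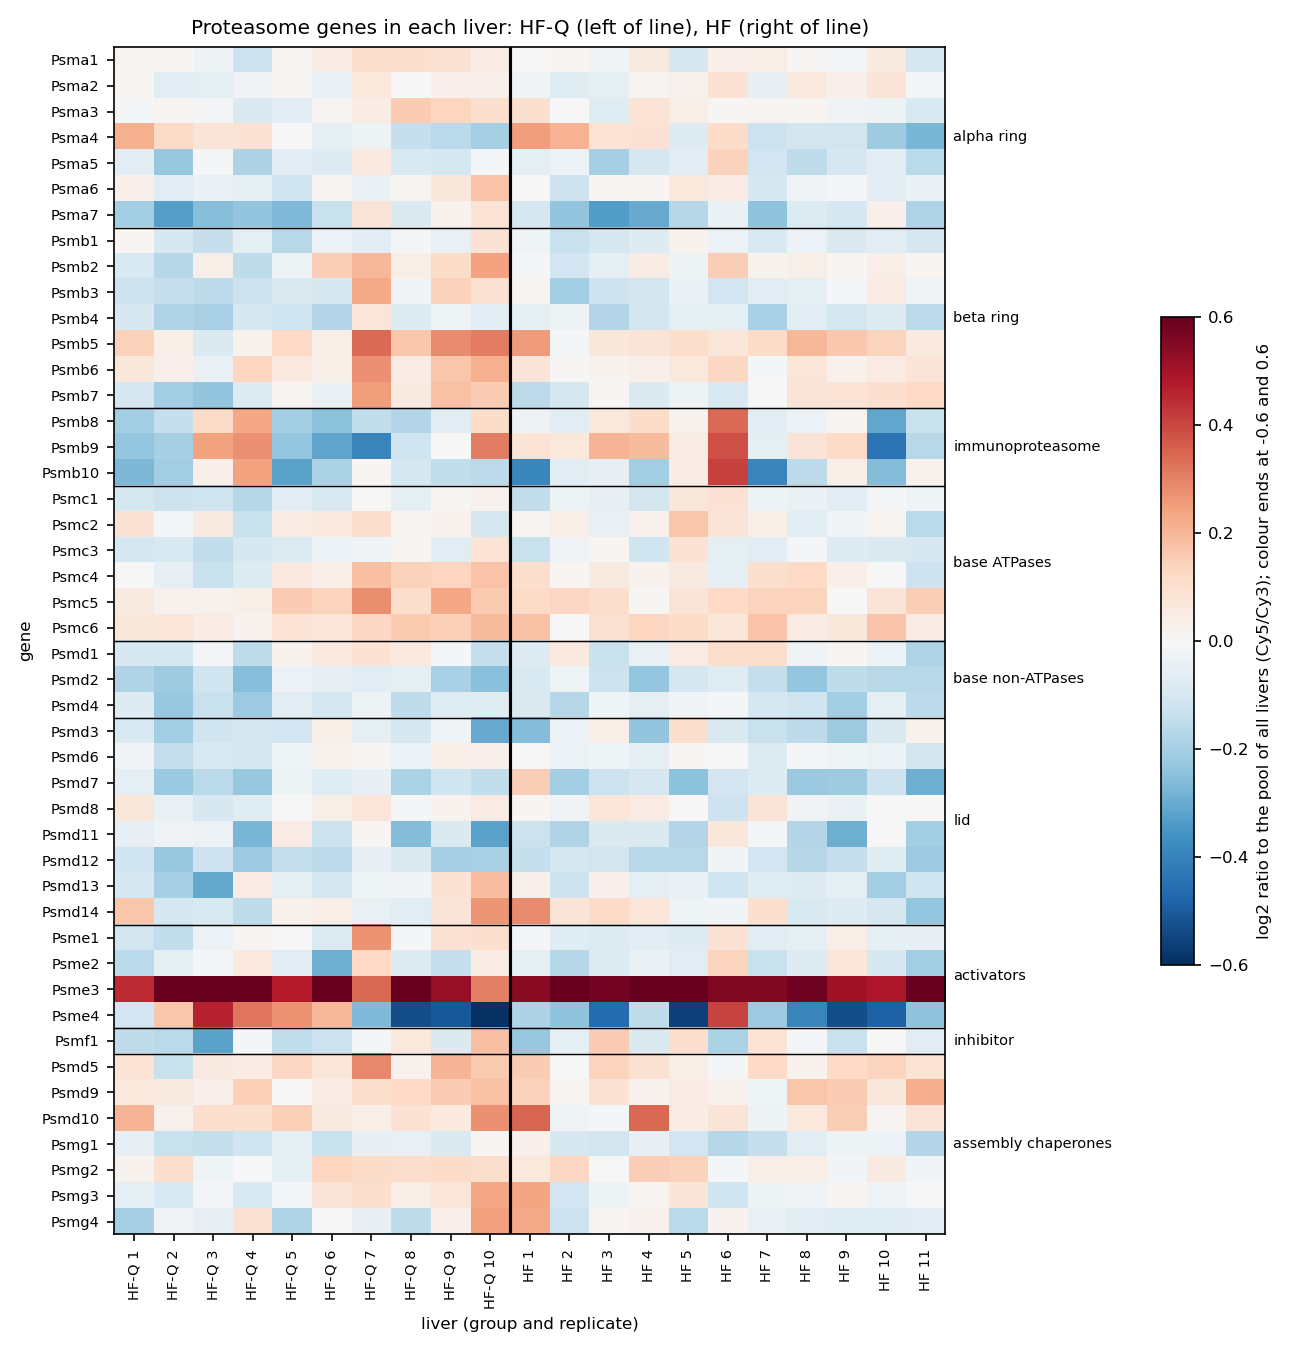
Log2 ratio to the pool of the 46 tested proteasome genes (rows, by role) in each liver (columns), HF-Q left of the line and HF right of it, with colour ending at -0.6 and 0.6. Neither group forms a block of its own colour, the rows of Psmb8 and Psmb9 change together, and Psme3 is above 0 in all livers.

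Among the activators, Psme4 had the lowest p of all proteasome genes. Psme4 encodes the large single-chain cap that works without ubiquitin and has been tied to histone degradation. Levels ran between -0.68 and 0.46 in HF-Q livers with a median of 0.025, against -0.56 to 0.40 in HF livers with a median of -0.24. The lowest and the highest livers of all were both HF-Q, and 1 HF liver, replicate 6, stood well above the other 10. The log2 fold change was 0.21 ± 0.14 (SE, n = 10 and 11, unadjusted p = 0.138 and adjusted p = 0.939, limma), with a 95% confidence interval of -0.073 to 0.49. It was 0.29, 0.28 and 0.17 within slides 1, 2 and 3. Without HF replicate 6 it was 0.28 with an unadjusted p of 0.038 and an adjusted p of 0.779, and without HF-Q replicate 10 it was 0.28 with an unadjusted p of 0.044 and an adjusted p of 0.620, both by limma. A second Psme4 probe followed the first at r = 0.76 and gave a log2 fold change of 0.055 ± 0.089 (SE). The share of spots well above background in Cy5 had r = 0.44 with the first probe over 21 livers. It was 0.63 in HF-Q and 0.0051 in HF livers, and 0.52, -0.16 and 0.76 within slides 1, 2 and 3. The part of the arrays in the Psme4 values was not tested.

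Psme1 and Psme2 encode the interferon-inducible cap that pairs with immunoproteasomes. The log2 fold change of Psme1 was 0.045 and that of Psme2 was 0.0072, and neither passed the test. They correlated with each other at r = 0.65, and with Psmb9 at 0.47 for Psme2 and 0.14 for Psme1, a difference that was not tested. On slide 3 both values with Psmb9 lay below 0, at -0.072 for Psme2 and -0.41 for Psme1. The Psme1 probe was printed 10 times on each array, and these spots had a median SD of 0.020 within an array, against 0.092 between livers of a group. The SD over spots leaves out differences between arrays. Psme3, the nuclear cap, had a log2 fold change of -0.020. It was the only gene of the 46 above the pool in all 21 livers, by 0.57 on average (0.30 to 0.83). Psmd2, Psmd4 and Psmd12 were above it in none. Dyes were not swapped, and the pool was made of the livers themselves. An offset from the pool that all 21 livers share is therefore not read as a level of the gene in liver.

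Psmf1, the inhibitor that binds the outer rings, ran between -0.32 and 0.18 in HF-Q livers with a median of -0.11, against -0.23 to 0.15 in HF livers with a median of -0.056. Its log2 fold change was -0.038 ± 0.056 (SE, limma adjusted p = 0.989). The 7 assembly chaperone genes all had log2 fold changes above 0, by 0.026 at most, but 5 of the 7 did with the Cy5 channel alone and 2 of the 7 on slide 2, where Psmg4 was lowest at -0.22. Psmg3, which helps to build the alpha ring, had the lowest p of them and ran between -0.092 and 0.23 in HF-Q livers with a median of 0.015, against -0.12 to 0.23 in HF livers with a median of -0.019. Its log2 fold change was 0.026 ± 0.044 (limma adjusted p = 0.999). The other alpha ring chaperones Psmg1, Psmg2 and Psmg4 had log2 fold changes of 0.0079, 0.0082 and 0.0015. The base chaperones Psmd5, Psmd9 and Psmd10 had log2 fold changes of 0.012, 0.0068 and 0.011.

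The constitutive subunits varied together between livers, within a narrow range. A gene of the constitutive core, base or lid had a median r of 0.55 with the mean of the other such genes, and 81.9% of the 465 pairs had an r above 0. Psmd6, a lid subunit, stood highest at 0.84, followed by Psmb5 at 0.76. The alpha subunit Psma4 at -0.27 and the lid subunit Psmd3 at -0.043 stood below 0, as did the immunoproteasome genes at -0.084 to -0.13. Psme4 stood at -0.46 and Psme3 at -0.65, but on slide 2 alone at 0.63 and 0.72. With median centring in place of loess Psme4 and Psme3 became 0.31 and 0.85, and Psme3 was at 0.055 in the authors' deposited table. The median r of the constitutive genes moved too, to 0.97 with median centring and 0.77 in the deposited table, so the strength of this covariation depends on the normalization within arrays.

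**Figure D5:**
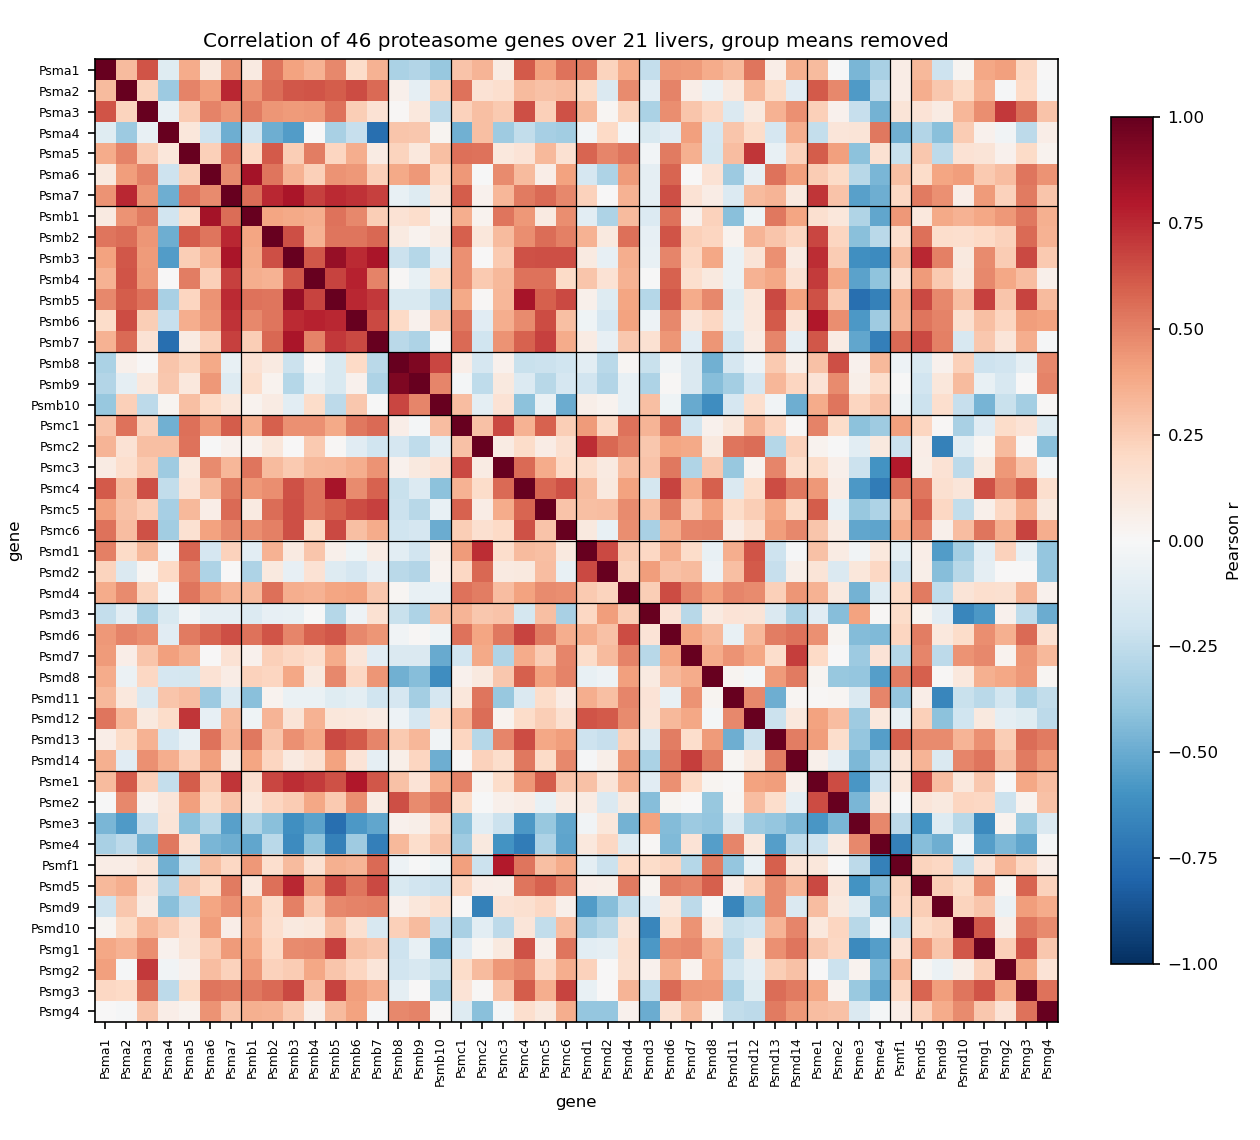
Pearson r over 21 livers, group means removed, for each pair of the 46 tested proteasome genes after loess normalization, with lines between roles. Psmb8 and Psmb9 form a block of their own (r = 0.93), the beta ring genes are mostly positive with each other, and Psme3 and Psme4 are mostly negative with the core, a sign that turned on slide 2 and with median centring.

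The constitutive mean varied by an SD of 0.045 within groups, with an SD of 0.058 in HF-Q livers and 0.028 in HF livers. The beta ring mean ran between -0.12 and 0.19 in HF-Q livers, against -0.086 to 0.033 in HF livers, with an SD of 0.10 in HF-Q and 0.037 in HF. HF-Q replicates 7, 9 and 10 held the 3 highest beta ring means, at 0.19, 0.11 and 0.15. After loess the SD over livers was larger in HF-Q than in HF for 7 of 7 beta ring genes and for 32 of the 46 tested genes, against 47.2% of all genes. The difference in spread was not tested. In these 3 livers 44.0%, 45.5% and 45.7% of probes were well above background, at the low end of the arrays. Over HF-Q livers the share of spots well above background in Cy5 had r = -0.80 with the constitutive mean, and over HF livers 0.41. Over all 21 livers the r was -0.51, or -0.20 without the 2 livers farthest from the median of that share. Within slides 1, 2 and 3 it was -0.23, -0.20 and -0.78. The mean of the hepatocyte markers had r = -0.64 with the constitutive mean over all 21 livers. The part of the arrays or of the cell makeup in this spread was not tested.

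The 8 genes outside the family most like the constitutive mean were Cox19, Tmem167, Fdx2, Htatip2, Cdc34, Cdk2ap1, Fgf21 and Mrps18b, with r between 0.84 and 0.76 over 21 livers. Cdc34 encodes a ubiquitin-conjugating enzyme and Fgf21 a hormone secreted by the liver. All 8 had a higher r in HF-Q than in HF livers. The 8 were picked by r over all 21 livers, and the constitutive mean spread wider in HF-Q (SD 0.058 against 0.028 in HF). HF-Q livers thus weigh more in that pick, so the higher r is not a result about the groups. Cox19 stood at 0.96 in HF-Q livers and 0.44 in HF livers, and at 0.091 on slide 2. Mrps18b stood at 0.93 in HF-Q livers and 0.11 in HF livers, and at -0.56 on slide 2, so the likeness did not hold on every slide.

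The pathways around the proteasome gave few low p-values. Of 14 measured proteasome partners, such as shuttle factors and deubiquitinases, 5 had a log2 fold change above 0 and 9 below, and 0 passed an unadjusted p of 0.05. Zfand5, a proteasome-binding zinc finger protein, had a log2 fold change of -0.084 and Uchl5, a deubiquitinase of the base, of -0.044. Of 11 ubiquitin genes, 3 lay above 0 and 8 below, with 0 at an unadjusted p under 0.05. Ubb, a polyubiquitin gene, had a log2 fold change of -0.11 and Ube2l3, a conjugating enzyme, of -0.056. Of 15 antigen presentation genes, 12 lay below 0 and none had an unadjusted p under 0.05, and the class I heavy chains H2-D1 and H2-K1 had log2 fold changes of -0.071 and -0.065. Of 11 genes of other proteases, 7 lay above 0, and the lysosomal cathepsins Ctsb and Ctsd had log2 fold changes of -0.092 and -0.045, again with 0 at an unadjusted p under 0.05.

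The list around Nfe2l1 had 10 of 11 genes measured, 2 above 0 and 8 below, with a median log2 fold change of -0.040. Nfe2l2, the antioxidant response factor, was the only gene of the 5 lists at an unadjusted p under 0.05, which 2.91% of all genes reached in that direction. Its log2 ratio ran between -0.39 and 0.030 in HF-Q livers with a median of -0.26, against -0.28 to 0.074 in HF livers with a median of -0.13. The groups overlapped. HF-Q minus HF was -0.13 ± 0.056 (SE, n = 10 and 11), with an unadjusted p of 0.028 and an adjusted p of 0.809 by limma, so it did not pass. Syvn1, the ubiquitin ligase of the endoplasmic reticulum, had a log2 fold change of 0.20 with an adjusted p of 0.872 by limma.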

How the data were processed

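Livers of 24 mice were studied, and the authors left out 3 arrays that hybridised unevenly, per the labels. Each liver, 200 ng of RNA, was labelled with Cy5 and the pool of all samples with Cy3, per the labels. The authors deposited scanner output, with raw mean spot and background intensity in each channel, per the file headers. It came from Agilent Feature Extraction 10.7.3.1, per the submitters' processing notes. A table of log2 values was deposited too. Its centring and scale are not given in the sources used here, and only an alternative used it.

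In limma 3.58.1 under R 4.3.3, background was corrected by normexp (offset 50) and loess was run on the log2 ratio of Cy5 to Cy3 array by array. Control, uneven and outlying spots had weight 0 and were then left out, and repeated spots were averaged. The filter kept 26289 probes, those well above background in Cy5 on 10 or more of 21 arrays. The offset draws ratios of dim genes toward 0, and loess removes any shift shared by genes of like brightness.

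The comparison of HF-Q with HF used limma's two-sided moderated test, adjusted by Benjamini-Hochberg over 19716 genes at a threshold of 0.05. The test was also run on simulated data in which each gene varied independently, so that run does not cover the covariation between genes seen here. The proteasome genes, lists and tests were chosen with earlier results of these data known. Every tested proteasome gene is named, with values over livers for the catalytic genes, for the lowest p of each role and for any at an unadjusted p under 0.05. Up to 2 genes of lowest p are named per related list. Coordinates of probes come from the array files (NCBI37, mm9), and exons were not assigned. Each array is 1 mouse, no dyes were swapped, and the slide was read from the array identifier in each file's name. Alternatives changed background, normalization, filter, probe choice, variance model, weights, slide and replicate blocks, and left out each array in turn.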

Additional observations from a re-analysis of the deposited data

How the results depend on the processing

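Over 39 alternative settings, 21 of them leaving out 1 array and 1, without HF replicates 5 and 11, chosen after seeing the data, no proteasome gene passed an adjusted p of 0.05, and the lowest was 0.515 by limma (Psme4, array weights). Of 1794 values of single genes, 1770 moved by less than the gene's residual SD and 24 by more. That SD is a wide measure: its median was 0.091, against a median size of the log2 fold changes of 0.015. Leaving out 1 array could hardly move a value that far, so the count does not show that the values are stable. Signs were unstable: Psmb8, Psmc5, Psme4 and Psmf1 were the 4 of 46 that kept their sign in every setting. With median centring the median log2 fold change was 0.072 for the alpha ring, 0.068 for the base ATPases, 0.053 for the lid and 0.063 for the 31 constitutive genes, all above 0 there, against 0.024 over all genes. Slide 1 alone gave 0.091 for the alpha ring, and slide 2 alone gave -0.040 for the alpha ring and -0.24 for the immunoproteasome. Array weights and slide 2 alone each gave 1 gene past an adjusted p of 0.05, and 1 proteasome gene at an unadjusted p under 0.05: Psme4 at 0.29 with weights and Psma7 at -0.18 on slide 2. Leaving out single arrays gave 0 to 4 genes, the 4 when HF replicate 2 was out and 1 when HF-Q replicate 10 was out. They gave 0 to 1 proteasome genes at an unadjusted p under 0.05, in both cases Psme4, when HF replicate 6 or HF-Q replicate 10 was out. The correlation with the constitutive mean turned to 0.85 for Psme3 and 0.31 for Psme4 with median centring, and to 0.055 for Psme3 in the deposited table; these settings were chosen for the correlations after seeing the data. The cause of these changes was not tested. Same-numbered livers showed little likeness: of 10 such pairs, 1 had an r above 0.1 (-0.34 to 0.16). These values do not settle whether the numbers mark pairs, and the main fit treated the livers as unpaired. With the replicate number as a block, 0 genes and 0 proteasome genes passed.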
